A study of Mus musculus with 44 samples.

Results

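Ligands and receptors of the tumour necrosis factor (TNF) family were followed in microglia of a mouse amyloid model. Genes were taken by name: those whose symbol begins with Tnfsf or Tnfrsf and a number, together with Tnf, Lta, Ltb, Ltbr, Fas, Fasl, Cd27, Cd40, Cd40lg and Cd70. This gave 41 gene rows of the 37583 in each table, 16 of ligands, 5 of receptors with a death domain, 16 of other signalling receptors and 4 of decoy receptors. They carry 40 names, since Tnfrsf22 has 2 overlapping rows. The rule reads gene symbols alone.

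The study sorted microglia by flow cytometry for CD11b and CD45 from brains of mice aged 8 months and sequenced poly(A) RNA, to ask how the T96K change in Trem2 acts in an amyloid model. In females there were 7 libraries of 5xFAD mice with both Trem2 alleles carrying T96K (Trem2T96K/T96K, here T96K/T96K), 9 of 5xFAD mice with 1 such allele (T96K/+), 6 of 5xFAD mice with wild-type Trem2 (Trem2+/+) and 5 of mice without the 5xFAD transgenes and with wild-type Trem2 (NonTg). In males there were 6 T96K/T96K, 6 T96K/+ and 5 Trem2+/+ libraries, all 5xFAD; NonTg males were not analysed here, so the effect of 5xFAD itself was measured in females. 5xFAD mice carry transgenes for mutant human amyloid precursor protein and presenilin, driven by the neuronal Thy1 promoter, and form amyloid plaques. Trem2 encodes a lipid-sensing receptor of microglia. The labels number each library and do not say outright that a number is a mouse, so the p-values cover the variation among libraries, which may be technical in part.

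TNF family ligands are mostly made as membrane proteins that form trimers and cluster their receptors on the same or a neighbouring cell. Receptors with a death domain can pass the signal to caspases, while the others bind TRAF adaptor proteins and drive NF-kB and MAP kinase signalling; decoy receptors bind a ligand without passing on a full signal. In the brain microglia are a main source of TNF, and many of the other ligands are better known from contacts between T cells, B cells and antigen-presenting cells.

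The start regions of 3 ligand genes that were called higher in at least 1 comparison of 5xFAD with NonTg females are shown for orientation. Each runs 5′ to 3′ on the gene's own strand, from 250 bases before the annotated start to 50 bases after it, in the RefSeq annotation of GRCm38.p6, a later build than the mm9 of the tables. Capitals mark a match to any of 4 motifs searched on both strands: NF-kB, AP-1 (TGANTCA), the ETS site of PU.1 (GGAAGT) and the E-box (CACGTG).
Tnfsf8, chr4:63861235-63861534, - strand: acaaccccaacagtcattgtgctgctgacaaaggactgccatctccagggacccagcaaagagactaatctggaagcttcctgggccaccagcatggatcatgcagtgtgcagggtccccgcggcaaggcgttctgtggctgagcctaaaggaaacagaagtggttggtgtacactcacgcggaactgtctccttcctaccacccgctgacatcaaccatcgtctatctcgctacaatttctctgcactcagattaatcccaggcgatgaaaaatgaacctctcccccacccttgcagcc
Tnf, chr17:35201958-35202257, - strand: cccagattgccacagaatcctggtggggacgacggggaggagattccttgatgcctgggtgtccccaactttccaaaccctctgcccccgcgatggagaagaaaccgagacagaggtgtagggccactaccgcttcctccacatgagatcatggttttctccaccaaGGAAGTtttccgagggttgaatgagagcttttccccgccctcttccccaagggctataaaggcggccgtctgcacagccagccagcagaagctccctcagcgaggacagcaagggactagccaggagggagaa
Tnfsf13b, chr8:10006217-10006516, + strand: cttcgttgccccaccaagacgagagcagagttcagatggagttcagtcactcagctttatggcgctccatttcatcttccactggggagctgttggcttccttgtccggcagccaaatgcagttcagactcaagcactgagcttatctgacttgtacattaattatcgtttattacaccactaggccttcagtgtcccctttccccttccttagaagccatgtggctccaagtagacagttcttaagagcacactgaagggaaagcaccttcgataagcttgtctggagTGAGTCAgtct
The Tnfsf8 window held no match, the Tnf window held 1 match to the PU.1 site at -83 and the Tnfsf13b window held 1 AP-1 match at +40, counted from the start. A second annotated start of Tnfsf13b gave a window that held the same AP-1 match at -127. Windows were found for 31 of the 40 names, 35 windows in all, of which 4 matched NF-kB, 7 AP-1, 7 PU.1 and 6 the E-box. Among all 32851 windows of the table, 8.46% matched NF-kB, 7.81% AP-1, 23.8% PU.1 and 7.15% the E-box. A match describes these letters and no binding was measured.

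Depth, as reads recovered per library, spanned 5.89 to 42.4 M in separate ranges: 34 shallow libraries held at most 16 M and 10 deep ones at least 26.5 M, with 1 or 2 deep libraries in each group. The labels name no batch for this split, but it followed the library numbers within each sex. Deep libraries were numbered 25 to 34 in females and 21 to 24 in males, and shallow ones at most 24 and 15. The library labelled female T96K/+ 22 went against its sex label, with Xist at 0.416 RPKM and summed Y-linked genes at 29.3 RPKM (reads per kilobase of gene and of library depth), and the comparison of T96K/+ with NonTg is also given without it. Microglial markers (8 genes) were abundant in every group, with summed levels of 6429 to 12505 RPKM in T96K/T96K, 8244 to 12316 in T96K/+, 6939 to 14894 in Trem2+/+ and 3428 to 10842 in NonTg females. Their median sums were 9413, 9929 and 11058 RPKM in these 5xFAD groups and 5120 RPKM in NonTg. Endothelial markers (8 genes, none at 0) summed to 400.3 to 1255 RPKM in T96K/T96K, 224 to 932 in T96K/+, 250.02 to 582 in Trem2+/+ and 682 to 1718 in NonTg females. T or NK cell markers (12 genes, with Ncr1 at 0 in every library of all groups but female Trem2+/+) summed to at most 9.23 RPKM, and B cell markers (6 genes) to 15.4 to 29.1, 10.6 to 31.3, 15.9 to 35.9 and 7.53 to 18.6 RPKM in T96K/T96K, T96K/+, Trem2+/+ and NonTg females. The B cell sum of 10.6 RPKM came from the library labelled T96K/+ 22, and the other T96K/+ females held at least 17.5 RPKM. In bulk RNA, fewer cells of a type and less RNA per cell cannot be told apart.

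The family's most abundant transcripts in these microglia were receptors. In female T96K/T96K microglia the order by RPKM, a level per gene length, was led by Tnfrsf1a (TNF receptor 1, which binds TNF and carries a death domain) at 73.0 ± 10.3 RPKM (SD, n = 7), then Tnfrsf1b (TNF receptor 2, mainly of immune cells) at 57.1 ± 19.3 and Tnfrsf21 (death receptor 6) at 56.9 ± 15.4. Ltbr, the lymphotoxin beta receptor, followed at 40.6 ± 5.45 RPKM. Tnfrsf1b and Tnfrsf21 did not differ beyond their spread, and their order was the reverse in T96K/+ females. The same 4 genes led in T96K/+, Trem2+/+ and NonTg females, where Tnfrsf1a stood at 74.4 ± 7.19 (n = 9), 78.3 ± 12.9 (n = 6) and 65.2 ± 12.95 RPKM (n = 5).

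**Figure D1:**
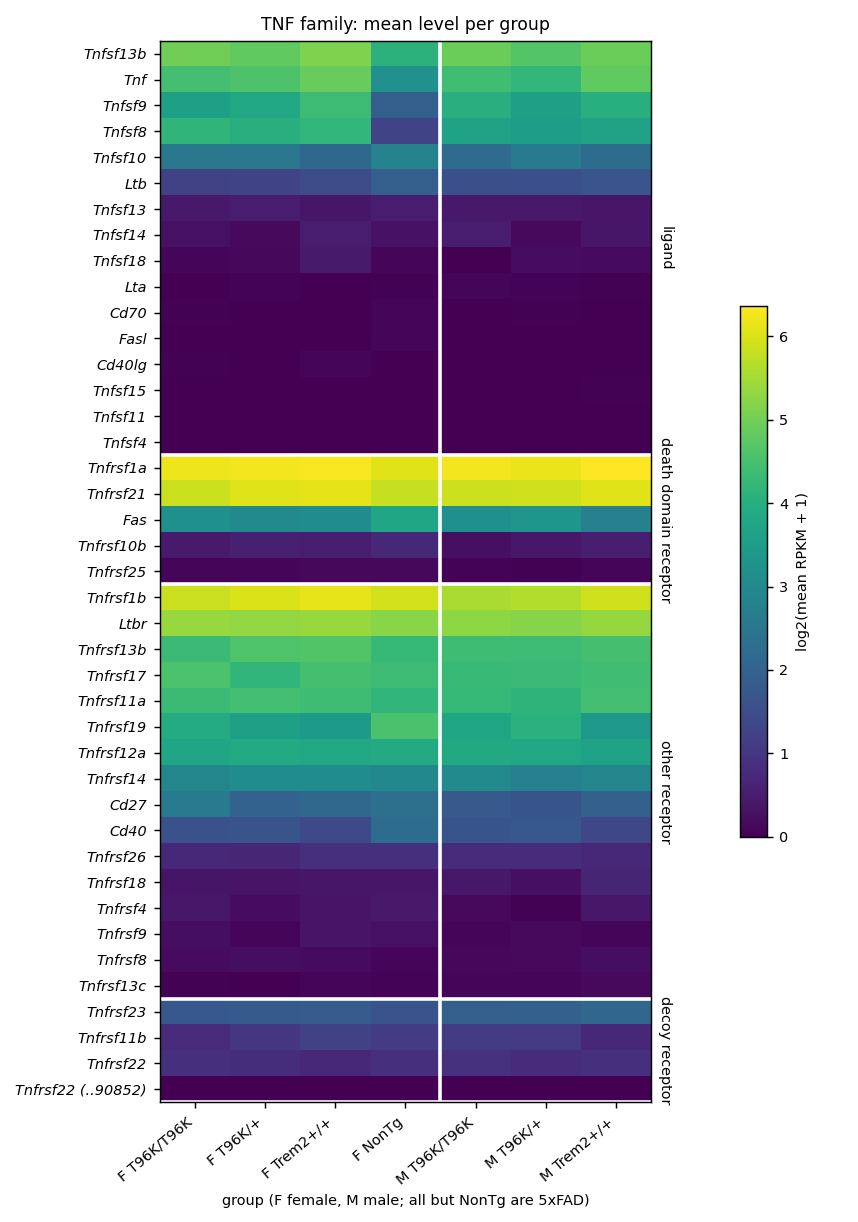
Mean level of all 41 members (rows, by class) in each genotype group (columns, females left and males right of the white line), as colour on a scale of log2(mean RPKM + 1). Receptors such as Tnfrsf1a, Tnfrsf1b, Tnfrsf21 and Ltbr are high in every group, while Tnfsf8, Tnfsf9 and Tnf are low in the NonTg column.

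The filter of at least 1 RPKM in at least 5 libraries left 21 members in each table, 6 ligands, 3 death domain receptors, 10 other receptors and 2 decoys. The 20 members not tested reached at most 1.53 RPKM in any female and 1.24 RPKM in any male library. Tnfsf4 (OX40 ligand) and the second Tnfrsf22 row were at 0 in every library of both tables, and Cd40lg and Tnfsf11 (RANKL) were at 0 in every male library as well. Among ligands below the filter, Tnfsf14 (LIGHT) reached 1.32 RPKM in females and 1.06 in males, Tnfsf18 (GITR ligand) 0.871 and 0.557, and Tnfsf13 (APRIL) 0.696 and 0.697. Lta, Cd70, Fasl, Tnfsf15, Cd40lg and Tnfsf11 stayed at or below 0.392 RPKM in all libraries. The receptors of the 2 ligands that rose most were also scarce: Tnfrsf8 (CD30, receptor of Tnfsf8) reached 0.300 RPKM in females and 0.396 in males, and Tnfrsf9 (4-1BB, receptor of Tnfsf9) 0.970 and 0.368. Tnfrsf13c (BAFF receptor) reached 0.190 and 0.266 RPKM, against Tnfrsf13b and Tnfrsf17, which also bind BAFF, at 9.75 to 36.7 and 6.75 to 35.0 RPKM in females. Tnfrsf4, Tnfrsf18, Tnfrsf26, Tnfrsf22, Tnfrsf10b and Tnfrsf25 made up the rest, with maxima of 0.224 to 1.53 RPKM over both tables. Tnfrsf22, Tnfrsf23 and Tnfrsf26 are related neighbours on chromosome 7, and reads of the overlapping Tnfrsf22 rows may have been split or lost in counting.

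Compared with NonTg females, the ligands Tnfsf8 (CD30 ligand), Tnfsf9 (4-1BB ligand) and Tnfsf13b (BAFF, a survival factor of B cells) were higher in 5xFAD females of each of the 3 Trem2 genotypes, by 0.77 to 2.99 on the log2(RPKM + 1) scale. Cd40, the receptor that T cells engage on antigen-presenting cells, was lower in all 3. Tnf passed the test as higher in Trem2+/+ and Fas, the death receptor for Fas ligand, as lower in T96K/+. Both main TNF receptors missed the threshold.
Called means an adjusted p under 0.05 in limma with Benjamini-Hochberg adjustment over all 14591 genes tested in females. In T96K/T96K against NonTg, 3 of 21 members were called higher and 1 lower, where 10.3% of all genes tested were called higher and 5.05% lower. In T96K/+ against NonTg, 3 were higher and 2 lower, beside a background of 10.3% and 7.07%. In Trem2+/+ against NonTg, 4 were higher and 1 lower, beside 13.5% and 10%. The shares of members called were near the background. The median log2 fold change over the members tested was 0.11, 0.12 and 0.15 in T96K/T96K, T96K/+ and Trem2+/+, beside 0.03, 0.03 and 0.04 over all genes tested. These 3 comparisons share the 5 NonTg libraries. Under quantile normalization the share of all calls that were higher was 47.7%, 47.1% and 45.8%, against 67%, 59.2% and 57.4% as deposited, and the members' medians became 0.00, -0.03 and -0.03.

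**Figure D2:**
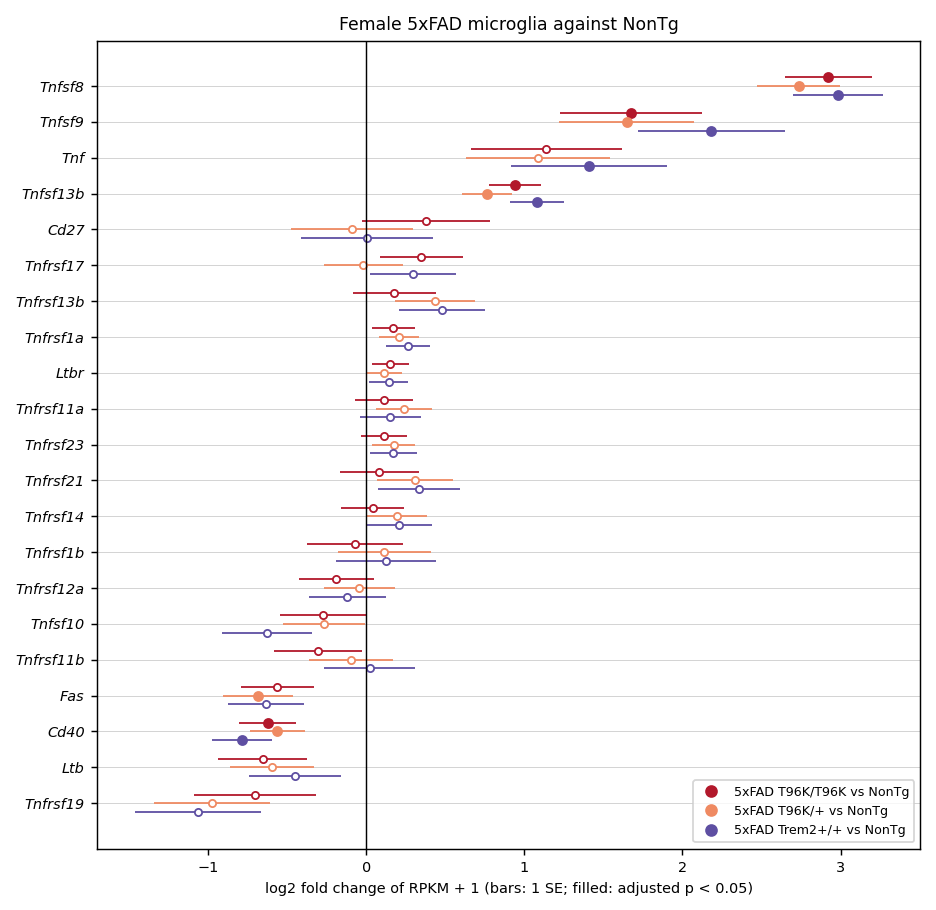
Log2 fold change on the log2(RPKM + 1) scale of each tested member in T96K/T96K, T96K/+ and Trem2+/+ females against NonTg females, with bars of 1 SE and filled symbols for members called by limma. Tnfsf8, Tnfsf9 and Tnfsf13b lie to the right of 0 and Cd40 to the left in all 3 comparisons.

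Tnfsf8 (ENSMUSG00000028362, chr4:63492342-63522381 of mm9, - strand) showed the largest change of the family in these comparisons. In T96K/T96K females the 7 libraries ran from 11.8 to 25.2 RPKM with a median of 15.6, in T96K/+ from 7.13 to 24.9 with a median of 14, and in Trem2+/+ from 11.9 to 24.1 with a median of 16.6. The NonTg libraries read 0.663, 0.639, 0.624, 2.62 and 2.88 RPKM, so no 5xFAD library overlapped them. The higher pair of NonTg values came from both deep NonTg libraries. The log2 fold change was 2.92 (SE 0.27, adjusted p 4.08e-08) in T96K/T96K, 2.73 (SE 0.26, adjusted p 4.21e-08) in T96K/+ and 2.99 (SE 0.28, adjusted p 4.6e-08) in Trem2+/+. Because a pseudocount of 1 RPKM is added, folds of genes this low in NonTg are understated. In males, whose table was scaled on its own so that levels are not compared with females, Tnfsf8 stood at 6.41 to 15 RPKM in T96K/T96K, 8.98 to 11.5 in T96K/+ and 14.1, 10.4, 11.6, 13.6 and 9.15 in Trem2+/+.

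Tnfsf9 (ENSMUSG00000035678, chr17:57244808-57247180, + strand), a co-stimulatory ligand of T cells, spread more widely between libraries. It ran from 5.94 to 17.9 RPKM in T96K/T96K (median 10.05), from 3.84 to 30.5 in T96K/+ (median 12.7) and from 5.82 to 40.8 in Trem2+/+ (median 15.5). NonTg libraries read 2.55, 1.79, 1.88, 2.85 and 4.91 RPKM. T96K/T96K and Trem2+/+ lay wholly above NonTg, and T96K/+ overlapped it at its low end. The log2 fold change was 1.68 (SE 0.45, adjusted p 0.0111) in T96K/T96K, 1.65 (SE 0.43, adjusted p 0.00853) in T96K/+ and 2.18 (SE 0.46, adjusted p 0.00126) in Trem2+/+. In males it ran from 6.72 to 21.5 RPKM in T96K/T96K (median 16.2) and from 6.44 to 19.8 in T96K/+ (median 8.36), and read 13.4, 8.37, 27.1, 11.1 and 15 in Trem2+/+, all overlapping.

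Tnfsf13b (ENSMUSG00000031497, chr8:10006843-10035441, + strand) was the most abundant ligand in every 5xFAD female group. It ran from 26.4 to 34.5 RPKM in T96K/T96K (median 29.9), from 19.6 to 34 in T96K/+ (median 28.8) and from 29.8 to 42.9 in Trem2+/+ (median 32.3). NonTg libraries read 13, 18.8, 8.50, 21.1 and 19.3 RPKM. T96K/T96K and Trem2+/+ lay above all NonTg libraries, while T96K/+ overlapped them. The log2 fold change was 0.94 (SE 0.17, adjusted p 0.00022) in T96K/T96K, 0.77 (SE 0.16, adjusted p 0.00119) in T96K/+ and 1.08 (SE 0.17, adjusted p 5.23e-05) in Trem2+/+. Male libraries spanned 15 to 35.8 RPKM in T96K/T96K, 16.8 to 29.7 in T96K/+ and 33.8, 28.5, 33.9, 28.2 and 21.9 in Trem2+/+.

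Tnf itself (ENSMUSG00000024401, chr17:35336326-35338952, - strand) varied widely between 5xFAD females of the same genotype. T96K/T96K libraries ran from 8.74 to 34.5 RPKM with a median of 19.5, T96K/+ from 7.88 to 52.5 with a median of 11.7, and Trem2+/+ from 10.7 to 69.4 with a median of 18.9. NonTg libraries read 9.14, 9.98, 4.63, 8.05 and 9.51 RPKM. The Trem2+/+ libraries lay just above NonTg, and both T96K groups overlapped it at their low ends. The call in Trem2+/+ (log2 fold change 1.41, SE 0.49, adjusted p 0.0388) was lost without any 1 of 7 of the 11 libraries compared, with adjusted p of 0.0504 to 0.109 in those cases. It was also lost with no expression filter (adjusted p 0.0652) and in the shallow libraries alone (1.32, adjusted p 0.116). T96K/T96K (1.14, SE 0.48, adjusted p 0.107) and T96K/+ (1.09, SE 0.45, adjusted p 0.104) were not called. Male Tnf had medians of 19 RPKM in T96K/T96K and 14.8 in T96K/+, and the Trem2+/+ males read 20.3, 22.4, 56.8, 22.1 and 14.5. Tnf, Lta and Ltb are neighbours on chromosome 17, and the library chemistry does not mark strand, so reads from the opposite strand cannot be told apart.

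**Figure D3:**
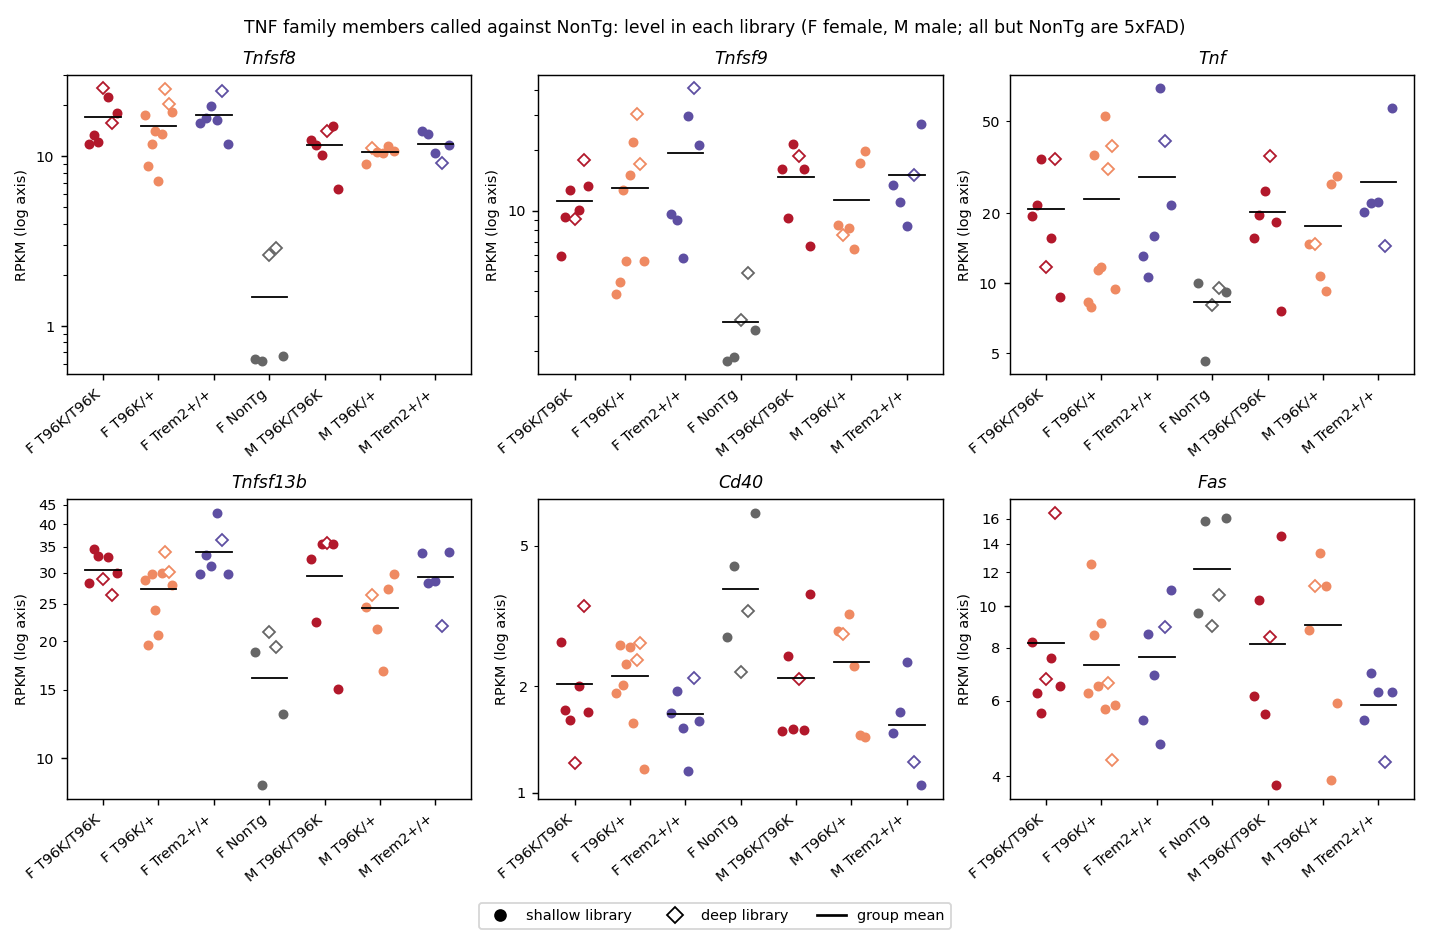
RPKM of the 6 members called in any comparison with NonTg, 1 point per library, on a log axis, with T96K/T96K, T96K/+, Trem2+/+ and NonTg females followed by the male 5xFAD groups; lines are group means, and filled circles and open diamonds mark shallow and deep libraries. Tnfsf8 separates all female 5xFAD libraries from NonTg, while each of the other members shown overlaps NonTg at least in T96K/+ females.

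The other tested ligands were not called. Tnfsf10 (TRAIL, a ligand of death receptors) averaged 4.88 ± 2.49 RPKM in T96K/T96K, 4.75 ± 1.59 in T96K/+, 3.40 ± 0.891 in Trem2+/+ and 6.23 ± 3.43 in NonTg females, and its log2 fold changes of -0.27, -0.27 and -0.63 had adjusted p of 0.535, 0.552 and 0.114. Its NonTg libraries read 11.7, 3.76, 7.35, 5.14 and 3.22 RPKM, and the 5xFAD groups overlapped them. Ltb, lymphotoxin beta, stood at 1.37 ± 0.761, 1.46 ± 0.741, 1.78 ± 1.10 and 2.82 ± 1.53 RPKM in the same groups. Summed over all ligands, transcripts came to 86.6 ± 12.1 RPKM in T96K/T96K, 85.3 ± 29.6 in T96K/+, 106 ± 40.1 in Trem2+/+ and 38.6 ± 6.65 in NonTg females, most of it from Tnfsf13b, Tnf, Tnfsf9 and Tnfsf8.

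Cd40 (ENSMUSG00000017652, chr2:164881127-164898448, + strand) was the only receptor called in all 3 comparisons with NonTg. It ran from 1.21 to 3.37 RPKM in T96K/T96K (median 1.71), from 1.16 to 2.65 in T96K/+ (median 2.32) and from 1.15 to 2.11 in Trem2+/+ (median 1.64), and NonTg libraries read 6.20, 2.76, 4.38, 2.19 and 3.28 RPKM. Trem2+/+ lay wholly below NonTg and the T96K groups overlapped it. The log2 fold change was -0.62 (SE 0.18, adjusted p 0.0197) in T96K/T96K, -0.56 (SE 0.17, adjusted p 0.0254) in T96K/+ and -0.79 (SE 0.19, adjusted p 0.00335) in Trem2+/+. The T96K/T96K and T96K/+ calls were lost without NonTg library 4 or without NonTg library 24. Male Cd40 ran from 1.498 to 3.65 RPKM in T96K/T96K and from 1.44 to 3.20 in T96K/+, and read 1.48, 2.35, 1.05, 1.69 and 1.22 in Trem2+/+.

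Fas (ENSMUSG00000024778, chr19:34365149-34402260, + strand) ran from 5.62 to 16.5 RPKM in T96K/T96K (median 6.73), from 4.37 to 12.6 in T96K/+ (median 6.51) and from 4.76 to 10.9 in Trem2+/+ (median 7.76). NonTg libraries read 16.1, 9.63, 15.9, 8.96 and 10.6 RPKM, and every 5xFAD group overlapped them. T96K/+ was called lower (log2 fold change -0.69, SE 0.22, adjusted p 0.0322), and the call was lost without NonTg 4 or 24 or T96K/+ 8, 23 or 33. It was also lost with no expression filter (adjusted p 0.0549). T96K/T96K (-0.56, SE 0.23, adjusted p 0.102) and Trem2+/+ (-0.63, SE 0.24, adjusted p 0.0574) missed the threshold. T96K/T96K library 34, the highest of its group for Fas at 16.5 RPKM, also had the highest endothelial marker sum of the 5xFAD females at 1255 RPKM. Without library 34 the T96K/T96K difference passed at an adjusted p of 0.0155. In T96K/+ and Trem2+/+ the highest Fas libraries, 17 and 7, did not have the highest endothelial sums of their groups. Their sums were 669 and 474 RPKM, below 932 RPKM in T96K/+ 22 and 582 RPKM in Trem2+/+ 14. The Trem2+/+ difference passed without NonTg 28 (adjusted p 0.0393) or without Trem2+/+ 7 (adjusted p 0.0328). In the shallow libraries alone Fas was called lower in all 3 comparisons, by -0.90, -0.77 and -0.85 in T96K/T96K, T96K/+ and Trem2+/+ (adjusted p 0.0127, 0.0244 and 0.0139). Male Fas ran from 3.81 to 14.6 RPKM in T96K/T96K and from 3.91 to 13.3 in T96K/+, and read 5.40, 6.29, 6.31, 6.98 and 4.32 in Trem2+/+.
Endothelial markers were also lower against NonTg: 1 of 8 endothelial genes was called lower in T96K/T96K, 6 in T96K/+ and all 8 in Trem2+/+. Their median log2 fold changes were -0.72, -0.99 and -1.33 in these comparisons. The values were -0.62, -0.56 and -0.79 for Cd40 and -0.56, -0.69 and -0.63 for Fas. With the endothelial level as a covariate neither Cd40 nor Fas was called in any of the 3 comparisons, and Tnfsf8 kept its call in each, with log2 fold changes of 2.61, 2.28 and 2.39 in T96K/T96K, T96K/+ and Trem2+/+. Tnfsf13b kept its call in T96K/T96K and Trem2+/+ but not in T96K/+, where Tnfsf10 was called higher at 0.56. Tnfsf9 and Tnf were not called in that fit either.
In T96K/T96K, T96K/+ and Trem2+/+ the log2 fold changes with the covariate were 0.71, 0.43 and 0.65 for Tnfsf13b, 1.40, 1.24 and 1.65 for Tnfsf9 and 0.89, 0.72 and 0.93 for Tnf, each above 0 and below its value without the covariate. Those of Cd40 were -0.41, -0.25 and -0.38, and those of Fas were -0.19, -0.14 and 0.0859. That fit called 1007, 566 and 445 genes in all, against 2236, 2530 and 3438 without the covariate. The part of endothelial RNA in the Cd40 and Fas differences was not tested further. Of 8 microglial markers 1, 1 and 2 were called higher against NonTg in T96K/T96K, T96K/+ and Trem2+/+, and 0 lower. Their median log2 fold changes were 0.31, 0.50 and 0.51. The part of microglial RNA in the ligand differences was not tested.
Tnfrsf19 (TROY) stood at 14.1 ± 8.14 RPKM in T96K/T96K, 11.2 ± 5.19 in T96K/+, 10.01 ± 3.99 in Trem2+/+ and 22.3 ± 10.3 in NonTg females, and was not called. Leaving out the library labelled female T96K/+ 22 gave 3 members higher and 3 lower in T96K/+ against NonTg, against 3 and 2 with it; the 5 calls stood and Tnfrsf19 was added at -1.08 (SE 0.37, adjusted p 0.0449).
Without that library the log2 fold changes in T96K/+ against NonTg were 2.85 for Tnfsf8 (SE 0.25, adjusted p 1.47e-08), 1.59 for Tnfsf9, 0.81 for Tnfsf13b, -0.59 for Cd40 and -0.73 for Fas, and Tnf was still not called at 1.16 (adjusted p 0.09). The T96K/+ median of Tnf became 21.2 RPKM in 8 libraries, against 11.7 in 9, and that of Tnfsf9 became 9.15 RPKM, against 12.7. The lowest T96K/+ value of Tnfsf8 became 8.75 RPKM and that of Ltbr 34.3 RPKM, and the T96K/+ ranges of Tnf, Tnfsf9, Tnfsf13b, Cd40 and Fas were as given. Against Trem2+/+, Tnfsf13b in T96K/+ differed by -0.27 without it (adjusted p 0.999).

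Receptors of BAFF and death receptor 6 behaved differently in shallow and deep libraries. Tnfrsf13b (TACI, ENSMUSG00000010142, chr11:60940257-60962874, + strand) read 17.6 to 24.1 RPKM in shallow and 10.3 and 17 in deep T96K/T96K libraries, 18.8 to 36.7 in shallow and 14 and 20.02 in deep T96K/+ libraries, and 19.8 to 32 in shallow and 13.5 in the deep Trem2+/+ library. In NonTg the shallow libraries read 9.75, 14.7 and 9.75 RPKM and the deep ones 28 and 28.8. Shallow 5xFAD libraries lay above the shallow NonTg ones, and deep 5xFAD libraries below the deep NonTg ones.
Tnfrsf21 (ENSMUSG00000023915, chr17:43153504-43226137, + strand) had a similar pattern, with 49.999 to 73.7 RPKM in shallow T96K/T96K, 58.9 to 87.3 in shallow T96K/+, 55.8 to 97.3 in shallow Trem2+/+ and 52.7, 32.2 and 37.6 in shallow NonTg libraries. Its deep libraries read 25.9 and 62.4 in T96K/T96K, 37.6 and 72.6 in T96K/+, 37.8 in Trem2+/+ and 78.0 and 71.7 in NonTg, so that 1 deep T96K/+ library reached the NonTg level. Tnfrsf17 (BCMA, ENSMUSG00000022496, chr16:11313905-11320167, + strand) read 22 to 35 RPKM in shallow T96K/T96K, 14 to 22.5 in shallow T96K/+ and 18.1 to 25.4 in shallow Trem2+/+ libraries, where shallow NonTg read 6.75, 29.4 and 10.6. The deep libraries of Tnfrsf17 read 15.5 and 14.3, 13 and 15.8, and 16.6 in these 5xFAD groups, against 29.9 and 21.2 in NonTg.
The difference of the 5xFAD effect between deep and shallow females, a fit added after seeing the data, was -1.92 for Tnfrsf13b (SE 0.29, adjusted p 0.000392), -1.46 for Tnfrsf21 (SE 0.34, adjusted p 0.014) and -1.38 for Tnfrsf17 (SE 0.39, adjusted p 0.0469). Thus 3 of 21 members were called there, where 4.04% of the 14591 genes were. Over all libraries none of the 3 receptors was called, with log2 fold changes in T96K/T96K, T96K/+ and Trem2+/+ of 0.18, 0.44 and 0.48 for Tnfrsf13b, 0.08, 0.31 and 0.33 for Tnfrsf21, and 0.35, -0.02 and 0.29 for Tnfrsf17. In the shallow libraries alone Tnfrsf13b rose by 0.87, 1.06 and 1.14 and Tnfrsf21 by 0.61, 0.74 and 0.84 in T96K/T96K, T96K/+ and Trem2+/+, all called. There Tnfrsf17 was called higher in T96K/T96K at 0.92 (adjusted p 0.0292) and was not called at 0.40 in T96K/+ (adjusted p 0.345) or 0.72 in Trem2+/+ (adjusted p 0.0747). B cell marker sums, 16.8 and 18.6 RPKM in the deep against 7.53 to 9.08 RPKM in the shallow NonTg libraries, moved the same way within NonTg. Deep 5xFAD females had B cell sums of 15.4 and 20.3 RPKM in T96K/T96K, 18.9 and 31.3 in T96K/+ and 20.6 in Trem2+/+. Shallow ones ran from 16.6 to 29.1, from 10.6 to 25.3 and from 15.9 to 35.9 RPKM in these groups. Over all female libraries, 1 of the 3 tested B cell markers was called higher against NonTg in each 5xFAD group. Microglial marker sums also moved that way within NonTg, 7960 and 10842 RPKM in the deep against 3428 to 5120 RPKM in the shallow libraries. Deep 5xFAD females had microglial sums of 6429 and 7318 RPKM in T96K/T96K, 9458 and 9074 in T96K/+ and 10760 in Trem2+/+. Shallow ones ran from 7784 to 12505, from 8244 to 12316 and from 6939 to 14894 RPKM. The part of either marker list in the result was not tested. Depth followed the library numbers, so it cannot be told apart from anything else that differed between low- and high-numbered libraries. The labels do not say what else differed.

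**Figure D4:**
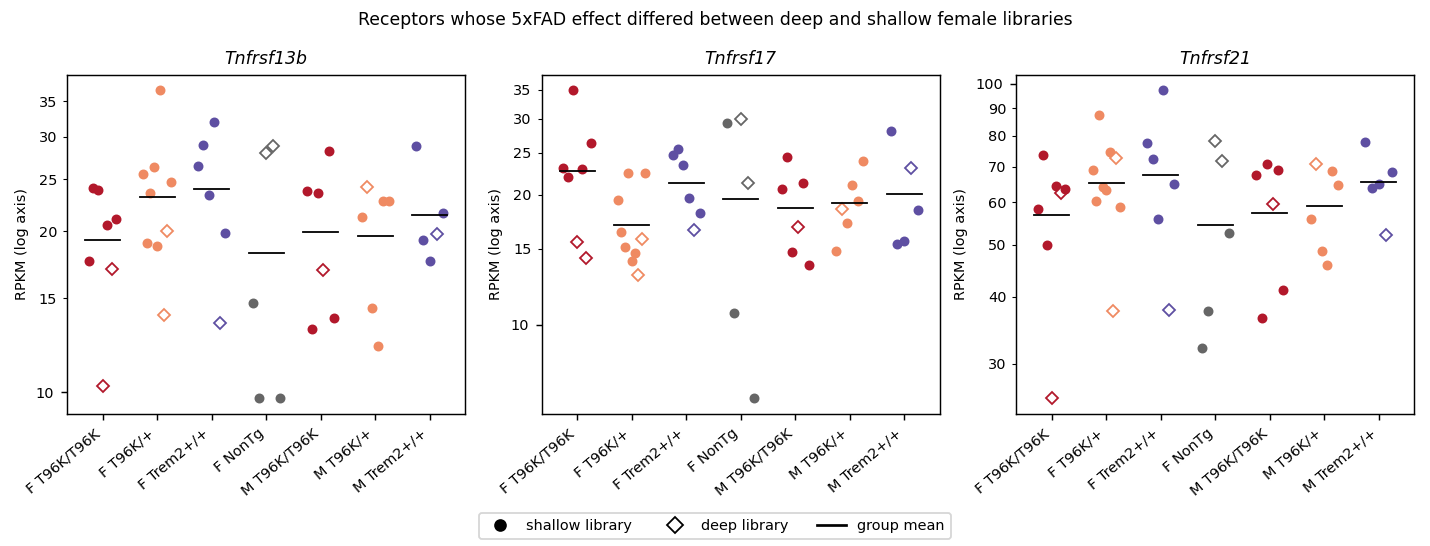
RPKM of Tnfrsf13b, Tnfrsf17 and Tnfrsf21 on a log axis, 1 point per library, in T96K/T96K, T96K/+, Trem2+/+ and NonTg females and then the male 5xFAD groups; filled circles are shallow and open diamonds deep libraries, and lines are group means. The deep NonTg libraries stand high and most deep female 5xFAD libraries low.

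The remaining receptors were not called in any comparison with NonTg. Tnfrsf1a ran from 56.0 to 86.0 RPKM in T96K/T96K (median 76.0), from 63.1 to 85.5 in T96K/+ (median 75.3) and from 56.2 to 93.6 in Trem2+/+ (median 79.6), and read 66.0, 46.4, 65.0, 83.0 and 65.5 in NonTg females. Tnfrsf1b ran from 25.9 to 88.1 RPKM in T96K/T96K (median 55.6), from 34.5 to 101 in T96K/+ (median 65.6) and from 33 to 121 in Trem2+/+ (median 70.0), and read 71.3, 39.7, 39.0, 78.6 and 67.7 in NonTg. Both TNF receptors overlapped in all 4 groups. Ltbr ran from 33.8 to 50.1 RPKM in T96K/T96K (median 39.5), from 33.2 to 48.2 in T96K/+ (median 39.7) and from 34 to 50.6 in Trem2+/+ (median 38.6), and read 40.9, 30.6, 32.8, 44.0 and 34.3 in NonTg. Tnfrsf11a (RANK, receptor of RANKL) ran from 11 to 23.7 RPKM in T96K/T96K (median 19.9), from 16.2 to 27.9 in T96K/+ (median 18.8) and from 14.4 to 31.0 in Trem2+/+ (median 18.4), and read 18.3, 16.2, 14, 22.3 and 15.7 in NonTg. Ltbr and Tnfrsf11a likewise overlapped in all 4 groups. Tnfrsf12a (Fn14, the TWEAK receptor), Tnfrsf14 (HVEM) and Cd27 had group means of 12.4 to 13.9, 6.62 to 7.49 and 2.98 to 5.09 RPKM. Among the decoys, Tnfrsf23 (a decoy TRAIL receptor of mice) had means of 2.12 to 2.58 RPKM and Tnfrsf11b (osteoprotegerin, which captures RANKL) of 0.710 to 1.34 RPKM. The ligand of Tnfrsf12a was not analysed here.

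Within 5xFAD mice, no member was called between Trem2 genotypes in either sex. In females T96K/T96K against Trem2+/+, T96K/+ against Trem2+/+ and T96K/T96K against T96K/+ gave 0 of 21 members called, as they gave 0 of 14591 genes, a background of 0%. The 3 male comparisons also gave 0 of 21 members called and 0 of 13845 genes, a background of 0%. By unadjusted limma p under 0.05, 544, 523 and 514 genes passed in these 3 female comparisons and 1193, 1703 and 342 in the male ones. A missed threshold does not show that levels were alike.
The members with an unadjusted p under 0.05 are given as not called. Female Tnfsf13b was lower in T96K/+ than in Trem2+/+ by -0.32 on the log2 scale (SE 0.15, limma p 0.0434, adjusted p 0.994). Without the library labelled female T96K/+ 22 this difference was -0.27 (limma p 0.0829) and would not be listed here. Male Tnfrsf1b averaged 45.6 ± 7.38 RPKM in T96K/T96K (n = 6), 48.4 ± 7.68 in T96K/+ (n = 6) and 58.9 ± 6.74 in Trem2+/+ (n = 5). Its log2 difference from Trem2+/+ was -0.37 in T96K/T96K (SE 0.13, limma p 0.0104, adjusted p 0.5) and -0.29 in T96K/+ (SE 0.13, limma p 0.04, adjusted p 0.387). The male libraries ran from 34.2 to 52.4 RPKM in T96K/T96K and from 38.8 to 57.4 in T96K/+, overlapping the low end of the Trem2+/+ values of 59.7, 67.8, 57.5, 60.4 and 49.0. Female Tnfrsf1b ranged from 25.9 to 121 RPKM over the 3 genotypes.
Male T96K/+ also differed from Trem2+/+ by -0.15 in Ltbr (SE 0.06, limma p 0.0219, adjusted p 0.343), with means of 35.6 ± 2.02 and 39.6 ± 1.08 RPKM. Tnfrsf1a differed by -0.19 (SE 0.09, limma p 0.0475, adjusted p 0.402), with means of 71.2 ± 8.12 RPKM in T96K/+ and 81.1 ± 3.87 in Trem2+/+. Tnfrsf19 differed by 0.69 (SE 0.31, limma p 0.0368, adjusted p 0.382), with means of 15.6 ± 4.75 and 9.41 ± 3.98 RPKM. Endothelial marker sums in these males had a median of 904 RPKM in T96K/+ and 311 in Trem2+/+. With the endothelial level as a covariate no male member was called, as none was without it, so no call could be lost. In that fit the T96K/+ differences were 0.34 for Tnfrsf19 (adjusted p 0.325), -0.12 for Tnfrsf1a, -0.15 for Ltbr and -0.23 for Tnfrsf1b, and that of Tnfrsf1b in T96K/T96K was -0.35.

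**Figure D5:**
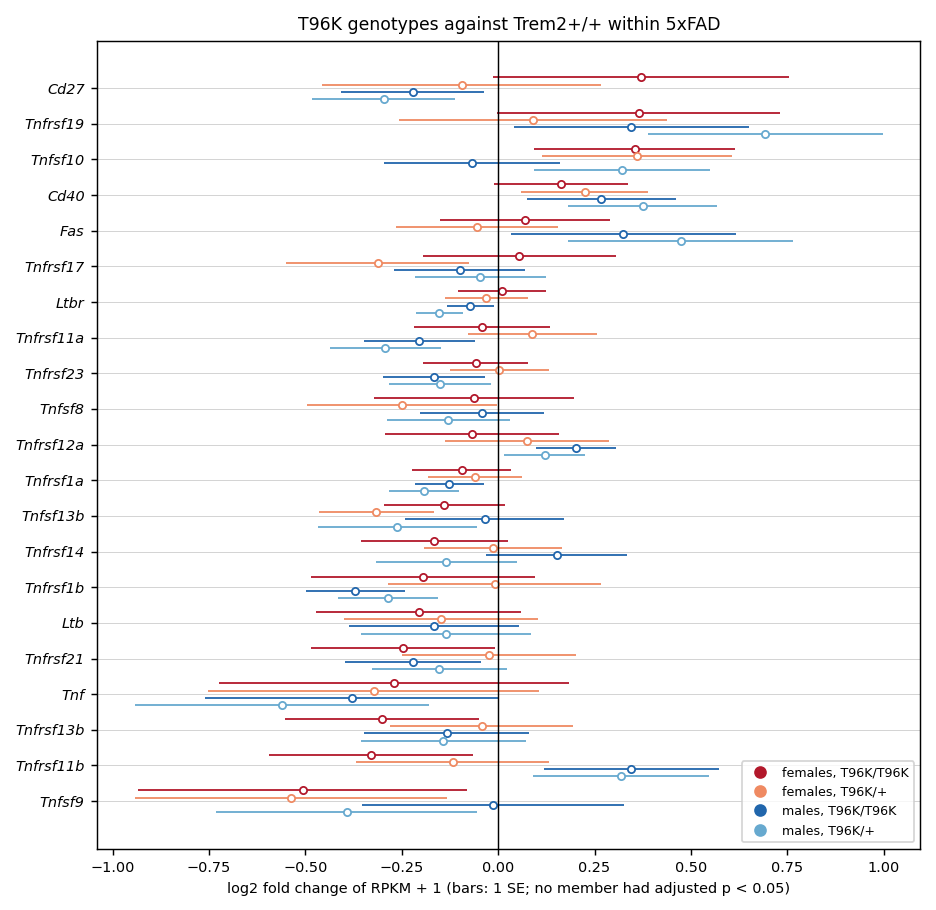
Log2 difference on the log2(RPKM + 1) scale of each tested member in T96K/T96K and T96K/+ against Trem2+/+ 5xFAD mice, females in red and males in blue, with bars of 1 SE. No member was called; the male Tnfrsf1b values lie at -0.37 and -0.29.

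The T96K effects in females and in males were set against each other in 1 fit of both tables over 13636 genes. No member was called and no gene was, a background of 0% for both T96K/T96K and T96K/+. No member had an unadjusted p under 0.05, while 760 and 643 genes did. The female T96K/+ group of this fit holds the library labelled 22, which went against its sex label. Without it no member was called for T96K/+, and the smallest limma p was 0.0932 for Tnfrsf11a (adjusted p 0.79).

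Lists of TNF receptor signalling parts and of TNF target genes were described beside the family, from the same limma fits. Of 38 listed signalling genes 33 were tested. Against NonTg, 1 was called higher and 0 lower in T96K/T96K, 2 and 0 in T96K/+, and 3 and 1 in Trem2+/+, with medians of -0.02, -0.01 and -0.07, and these shares lay below the 10.3%, 10.3% and 13.5% of all genes called higher. Tnip2, an adaptor that restrains NF-kB, was higher by 0.57 in T96K/T96K (adjusted p 0.00568), 0.65 in T96K/+ and 0.48 in Trem2+/+ (adjusted p 0.0183). Tank, a TRAF-binding adaptor, was higher by 0.32 in T96K/+ (adjusted p 0.0497) and by 0.43 in Trem2+/+. In Trem2+/+, Cyld, a deubiquitinase that limits NF-kB, was higher by 0.35 and Cflar, an inhibitor of caspase 8, was lower by -0.41 (adjusted p 0.0204).
All 31 TNF target genes were tested, and 8 were called higher in T96K/T96K, 7 in T96K/+ and 8 in Trem2+/+, none of them lower, beside the background of 10.3%, 10.3% and 13.5% of all genes called higher and 5.05%, 7.07% and 10% lower. Their medians were -0.01, 0.09 and 0.07, beside 0.03, 0.03 and 0.04 over all genes tested. The list was chosen with earlier results of these data known, so its counts are a description. Csf1, the growth factor of microglia and macrophages, averaged 104, 102 and 104 RPKM in T96K/T96K, T96K/+ and Trem2+/+ against 21.9 RPKM in NonTg females, log2 fold changes of 2.30, 2.20 and 2.28. Bcl2a1d, a survival gene, averaged 16.6, 16.6 and 21.4 RPKM against 1.98 RPKM, log2 fold changes of 2.69, 2.65 and 2.96. Its near-identical copies Bcl2a1a (1.54, 1.66 and 1.86) and Bcl2a1b (1.82, 1.70 and 1.89) may share reads with it, so the split between the copies is uncertain. Bcl2a1a, Bcl2a1b and Bcl2a1d each enter the counts of called targets above, and may not be separate observations. The other genes called were Ccl3, Ccl4 and Il1b in all 3 comparisons and Cxcl10 in T96K/T96K and Trem2+/+. Ccl3, a chemokine of activated microglia, averaged 828, 859 and 804 RPKM against 294 RPKM in NonTg, and Il1b 72.8, 61.6 and 107 RPKM against 24.9 RPKM. Many of these genes also answer to signals other than TNF.
Neither list held a called gene between Trem2 genotypes or between the sexes, and the 2 genes with the smallest p of each list are given as not called, with log2 differences. In female T96K/T96K against Trem2+/+ these were Tank at -0.33 (limma p 0.00601, adjusted p 0.974) and Rnf31 at 0.22 among signalling genes and Tnfaip8 at -0.20 and Bcl2a1a at -0.31 among targets. In female T96K/+ against Trem2+/+ they were Tnip2 at 0.17, Cflar at 0.15, Il1b at -0.91 (limma p 0.0153, adjusted p 0.994) and Jun at 0.60. In female T96K/T96K against T96K/+ they were Tank at -0.22, Map3k7 at -0.23, Mmp9 at 0.98 and Jun at -0.51. None of these female differences came near the threshold after adjustment. Over the 8 neutrophil markers, none of them called, the median log2 difference was -1.05 in T96K/+ against Trem2+/+ and 2.05 in T96K/T96K against T96K/+, and its part in the Il1b and Mmp9 differences was not tested.
In male T96K/T96K against Trem2+/+ the genes were Tnip2 at -0.25 (limma p 0.00692, adjusted p 0.5), Tradd at -0.21, Nfkb1 at -0.18 and Ptgs2 at -0.42. In male T96K/+ against Trem2+/+ they were Sharpin, a part of the linear ubiquitin ligase, at -0.27 (limma p 0.00648, adjusted p 0.303), Tab1 at -0.41, Mmp9 at -1.003 and Ccl5 at -0.54. In male T96K/T96K against T96K/+ they were Tab1 at 0.25, Sharpin at 0.15, Mmp9 at 0.62 and Bcl2a1b at 0.25. Mmp9 was the only target named in both sexes against T96K/+, at an adjusted p of 0.978 in females and 0.999 in males. The median over the 8 neutrophil markers in males was -0.78 in T96K/+ against Trem2+/+ and 0.85 in T96K/T96K against T96K/+, and its part in the male Mmp9 differences was likewise not tested. For the female minus male difference of the T96K/T96K effect the genes were Rnf31 at 0.40, Tnip2 at 0.35, Tnfaip8 at -0.28 and Nfkb1 at 0.34, and for that of the T96K/+ effect Tnip2 at 0.38, Sharpin at 0.41, Ccl3 at 0.74 and Ptgs2 at 0.82.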

How the data were processed

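Poly(A) RNA of sorted microglia went through SMART-Seq v4 cDNA synthesis and Nextera XT library preparation, which do not mark strand, per the labels' protocols. Alignment used STAR and mm9, per the series' design text, and the submitters' processing notes also name HTSeq and edgeR; versions are not given in the sources used here. The authors deposited RPKM for 27 female and 17 male libraries in separately scaled tables, with 0 columns left unused. RPKM times gene length and the value of 1 read gave whole reads within 0.01 reads for 100% of values, which gives depth; counting error and replicate spread both enter the tests.

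Tests used log2(RPKM + 1), a pseudocount of 1, only genes that reached 1 RPKM in 5 or more libraries of a table, and limma 3.58.1 in R 4.3.3 with trend and robust options, 1 mean per group over all libraries of a sex. P-values were adjusted by Benjamini-Hochberg over all genes tested and called under 0.05; sex differences used 1 fit of both tables. The fit was tested on simulated data. Members and lists (TNF receptor signalling, TNF target genes and markers of 11 cell types) were chosen with earlier results of these data known. Named genes were the better known members, all called members, and of each pathway list the 4 called genes with the smallest p in each direction, or 2 not called. Gene coordinates are of mm9 (GENCODE vM1), promoter sequences of RefSeq. Alternatives were another pseudocount (0.1), no filter, a filter at 2 RPKM, quantile normalization, limma without trend and robust options, limma-voom on the recovered reads, depth set as a term, shallow libraries, an endothelial covariate, each library left out and, added after seeing the data, deep libraries alone.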

Additional observations from a re-analysis of the deposited data

Results flagged for a closer look

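Dixon's gap test was run on the named members in each genotype group, and 8 of 98 sets of values (8.16%) held a library that stood apart, where chance gives about 1 in 20. In female T96K/T96K, library 34 had Fas at 16.5 RPKM against 5.62 to 8.23 RPKM in the others, and library 27 had Tnfrsf13b at 10.3 RPKM against 17 to 24.1 and Tnfrsf21 at 25.9 RPKM against 49.999 to 73.7. In female T96K/+, library 26 had Tnfrsf21 at 37.6 RPKM against 58.9 to 87.3, and in female Trem2+/+ library 25 had Tnfsf10 at 1.74 RPKM against 3.40 to 4.42. These 4 libraries are deep ones. In male T96K/T96K, library 6 had Tnfrsf1a at 59.7 RPKM against 73.7 to 81.3 and Tnfsf10 at 6.78 RPKM against 2.57 to 3.53, with an endothelial marker sum of 1170 RPKM, the highest of the males. In NonTg females, library 24 had Tnf at 4.63 RPKM against 8.05 to 9.98.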

How the results depend on the processing

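Of the counts of members called, 257 alternatives stayed within 1.5 times the value reported and 10 moved. All 10 were of comparisons with NonTg. The 257 include every alternative of the comparisons within 5xFAD and of the sex differences, where 0 members stayed at 0. The pooled count therefore does not measure how stable the calls against NonTg were. Against NonTg, the shallow libraries alone called 8 members in T96K/T96K and 8 in Trem2+/+, the deep ones alone 0 in T96K/T96K, 1 in T96K/+ (Tnfsf8) and 0 in Trem2+/+, and the endothelial covariate 2 in each of the 3. Leaving out each library gave 3 to 5 members in T96K/T96K, 3 to 6 in T96K/+ (3 without NonTg 4 or 24) and 4 to 6 in Trem2+/+. All T96K comparisons within 5xFAD and both sex differences stayed at 0 members in every alternative run. Of the fold changes, 714 alternatives kept direction and call, 41 lost a call, 13 gained one and 26 turned. With deep libraries alone Tnfrsf13b was at -1.05, -0.73 and -1.02 in T96K/T96K, T96K/+ and Trem2+/+, Tnfrsf21 at -0.876, -0.51 and -0.96, Tnfrsf17 at -0.72 and -0.58 in T96K/T96K and Trem2+/+, and Fas at 0.11 and Tnfsf10 at 0.67 in T96K/T96K. With the endothelial covariate Tnfsf10 was at 0.30, 0.56 and 0.46 in T96K/T96K, T96K/+ and Trem2+/+, and Trem2+/+ had Tnfrsf17 at -0.25 and Fas at 0.0859. Shallow libraries alone put Tnfrsf17 at 0.40 in T96K/+, and quantile normalization put Tnfrsf21 at -0.0948 in T96K/T96K. Leaving out each library gave -0.0809 to 0.26 for Tnfrsf21 in T96K/T96K, -0.32 to 0.18 for Tnfrsf17 in T96K/+ and -0.00953 to 0.49 in Trem2+/+. The cause of these changes was not tested. The deep set has 1 to 2 libraries a group, and its lone Trem2+/+ library is assumed to vary like the others. No paired analysis was possible because groups compared within a sex share no library number. Numbers recur only between libraries labelled female and male. The library labelled female T96K/+ 22, which went against its sex label, has the number and genotype of male T96K/+ 22. Whether these 2 libraries are related was not tested.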

Other observations

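The levels of other cell type markers are given as summed RPKM over each list, by the median and range over the libraries of T96K/T96K, T96K/+, Trem2+/+ and NonTg females. Neutrophil markers (8 genes) had medians of 1912, 915, 933 and 354, over ranges of 1079 to 5412, 33.3 to 2021, 421 to 6122 and 99.1 to 2759, and male medians of 5335, 2889 and 4119 in T96K/T96K, T96K/+ and Trem2+/+. Monocyte markers (7 genes) had medians of 75.7, 17.8, 69.1 and 24.3, and border-associated macrophage markers (7 genes) of 25.2, 25.6, 25.4 and 36.4. Mural markers (6 genes) had medians of 63.7, 58.0, 46.9 and 108. Astrocyte markers (7 genes) had medians of 87.9, 105, 93.4 and 118, oligodendrocyte markers (8 genes) of 366, 951, 140.5 and 257, and neuron markers (7 genes) of 11.6, 11.5, 11.5 and 20.1. None of these lists had a gene at 0 in every library of a group. Against NonTg, limma called 1, 2 and 3 mural markers lower in T96K/T96K, T96K/+ and Trem2+/+, and 2, 2 and 1 oligodendrocyte markers lower. Of the astrocyte markers 1 was called higher in each comparison, and 3, 0 and 3 lower. Of the border-associated macrophage markers 0, 1 and 1 were called higher, and no neutrophil, monocyte or neuron marker was called. No marker of these lists was called between Trem2 genotypes.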
